A study of Mus musculus with 12 samples.

Results

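The genes described here are the angiopoietin-TIE genes Angpt1, Angpt2, Tek, Tie1 and Ptprb, the apelin genes Apln and Aplnr, and the tip cell genes Esm1 and Pdgfb. They were taken by symbol from the deposited transcript table, and the values of a gene's transcripts were summed, which gave 9 of 23422 gene identifiers. RNA was measured in primary lung endothelial cells of C57BL/6J wild type mice (WT) and of mice lacking the mixed lineage kinases MLK2 and MLK3 (MLK2-/-MLK3-/-, here DKO). These kinases act upstream of JNK, and the study looked for pathways downstream of them. The groups were DKO hypoxia, DKO normoxia, WT hypoxia and WT normoxia, with 3 libraries each; hypoxia was 1% oxygen for 90 min and normoxia 21% oxygen. Monolayers were grown in medium with fetal bovine serum, endothelial mitogen and heparin. The labels give no age or sex of the mice and do not say how the cells were isolated. They are also silent on whether the 3 libraries of a group are separate cultures or mice, and p-values here speak only for the spread among libraries, which may be technical.

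The receptor tyrosine kinase TIE2, encoded by Tek, keeps vessels quiescent and tight when it is activated. Angiopoietin 1 (Angpt1), made mainly by the mural cells around vessels, is its activating ligand. Angiopoietin 2 (Angpt2) is made and stored by endothelial cells themselves and can act as an agonist or an antagonist. TIE1 (Tie1) is a co-receptor of TIE2, and VE-PTP (Ptprb) is a phosphatase that restrains TIE2. Tip cells lead new vessel sprouts: they secrete apelin (Apln), whose receptor is APJ (Aplnr), endocan (Esm1), a proteoglycan induced by VEGF, and PDGF-B (Pdgfb), which recruits pericytes. In the lung, Apln marks the capillary cells called aerocytes and Aplnr the general capillary cells.

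The oxygen response and the genotype were visible in the libraries. Of 12 genes used to check hypoxia, 10 rose and 1 fell in DKO cells, and 10 rose in WT cells (limma, adjusted p under 0.05). That is 91.7% in DKO, against 39.3% of all tested genes, and 83.3% in WT, against 20.8%. Map3k10, which encodes MLK2, was at 1.02 to 1.34 FPKM (fragments per kilobase of transcript, scaled to library size) in DKO hypoxia and at 0.131 to 0.169 FPKM in DKO normoxia, without overlap, against 16.6 to 19.2 FPKM in the 6 WT libraries. Map3k11, which encodes MLK3, was at 10.9 to 12.2 FPKM in DKO, against 31.9 to 36.4 FPKM in WT. The libraries held an estimated 21300000 to 26000000 fragments. All 18 pan-endothelial markers looked up passed the level filter (an average of 1 FPKM or more across libraries), with a summed level of 5299 to 5517 FPKM in DKO and 5210 to 5492 FPKM in WT. Single pan-endothelial markers did differ between genotypes: in hypoxia 6 of the 18 were higher and 5 lower in DKO, among them Esam (log2 0.36), Cd34 (0.31) and Cldn5 (-0.55). That is 61.1% of the list, against 16.1% of all tested genes. In normoxia 3 were higher, or 16.7%, against 8.16% of all tested genes. Macrophage and leukocyte markers summed to 85.3 to 102.5 FPKM in DKO and 41.0 to 54.1 FPKM in WT, and most of that gap was Lyz2, at 59.6 FPKM in DKO and 24.5 FPKM in WT on average in hypoxia and at 62.1 FPKM in DKO and 21.4 FPKM in WT in normoxia. Of 5 tested markers of that list 1 was higher in DKO in hypoxia (20%, against 16.1% of all tested genes). In normoxia 2 were higher, Lyz2 and Cd14 (40%, against 8.16%). Cd14 averaged 25.6 FPKM in DKO and 19.7 FPKM in WT in normoxia, and Tyrobp, which did not pass, 1.99 and 1.11 FPKM. Cd68 averaged 3.38 FPKM in DKO and 2.79 FPKM in WT in hypoxia, and 2.66 and 2.97 FPKM in normoxia. Lymphatic markers summed to 815 to 979 FPKM in DKO and 990 to 1196 FPKM in WT. In such bulk libraries, fewer cells of a type and less RNA per cell cannot be told apart.

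A pair of members is set side by side here for the sequence before their start sites: Esm1, which rose in hypoxia in both genotypes, and Apln, which did not pass the test in either. RefSeq promoter windows (GRCm38.p6) were matched for 4 of the 9 genes, namely Tek, Tie1, Apln and Esm1. The 250 bases before the start are given in the direction of the gene, with a match to the core of the binding site of hypoxia-inducible factor (ACGTG or GCGTG, on either strand) in capitals. The Esm1 window lies on the plus strand at chr13:113209409-113209658 and the Apln window on the minus strand at chrX:48034854-48035103.
Esm1: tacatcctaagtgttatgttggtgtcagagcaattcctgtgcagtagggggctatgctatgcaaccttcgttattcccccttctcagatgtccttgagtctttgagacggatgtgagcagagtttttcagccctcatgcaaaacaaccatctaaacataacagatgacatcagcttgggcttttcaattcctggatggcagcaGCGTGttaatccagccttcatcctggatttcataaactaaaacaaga
Apln: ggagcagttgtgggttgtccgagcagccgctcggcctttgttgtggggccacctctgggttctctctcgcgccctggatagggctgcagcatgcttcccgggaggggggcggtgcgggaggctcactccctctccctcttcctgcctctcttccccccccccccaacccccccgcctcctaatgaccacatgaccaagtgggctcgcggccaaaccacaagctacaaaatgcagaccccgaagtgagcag
The Esm1 window held 1 match, which starts 47 bases before the start site, and the windows of Apln, Tek and Tie1 held 0. Such a match was present in 38.6% of all 32851 promoter windows, so it is common. None of the 4 windows held the FOXO motif TGTTTAC (3.2% of all windows) or the AP-1 motif TGACTCA or TGAGTCA (4.5%), on either strand. These are counts of letters, not of bound sites. The pair was picked by its response, and Ptprb, which also rose in both genotypes, had no matched window. A link between a match and the response to hypoxia was not tested.

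Levels of the 9 genes differed widely in FPKM, which is a level per transcript length. Angpt2 had the highest mean over the 12 libraries, 1347 FPKM, above that of 99.2% of the 11378 genes that passed the level filter. Esm1 averaged 432 FPKM, Tie1 293 FPKM and Apln 194 FPKM, and the ranges of these 4 genes over the 12 libraries did not overlap. Tek followed at 33.8 FPKM, Ptprb at 22.8 FPKM and Pdgfb at 18.9 FPKM. Ptprb and Pdgfb did not differ beyond their spread in normoxia, where Ptprb had 17.4 to 19.6 FPKM and Pdgfb 17.6 to 19.9 FPKM in DKO, and Ptprb 17.9 to 21.6 FPKM and Pdgfb 16.5 to 18.5 FPKM in WT. Angpt1, at 0.661 FPKM, and Aplnr, at 0.121 FPKM, lay under the level filter, so 7 of the 9 genes entered the fit across all genes.

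**Figure D1:**
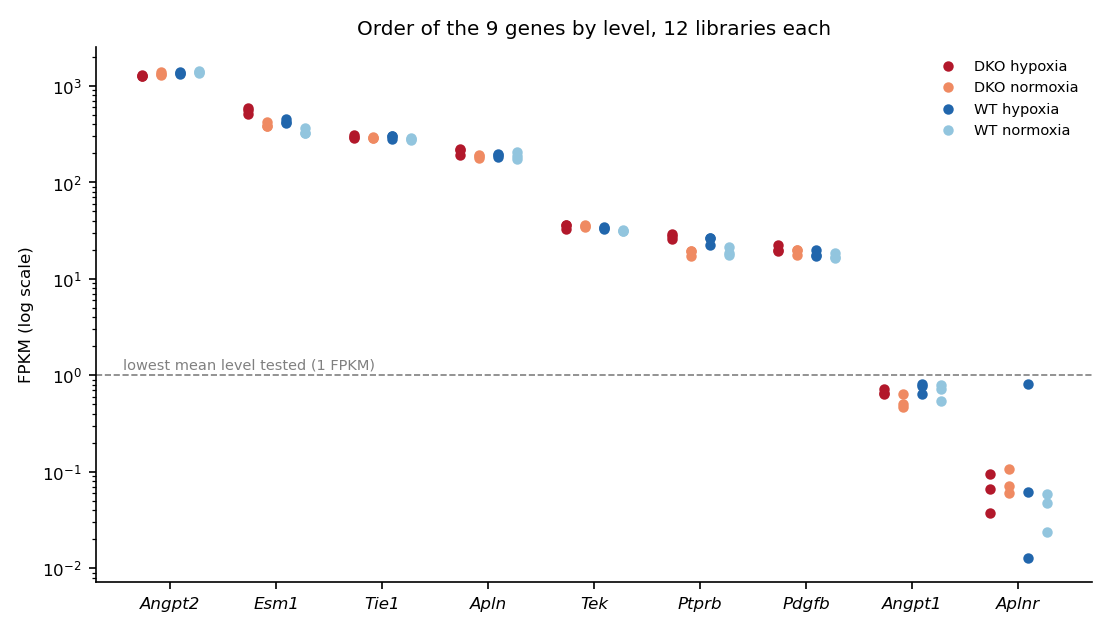
Level of each of the 9 genes (FPKM, log scale) in the 12 libraries, coloured by group, with genes ordered by their mean; the dashed line is the lowest mean level tested. Angpt2 stands highest at about 1347 FPKM on average, and Angpt1 and Aplnr lie under 1 FPKM in every library.

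Levels were compared on log2(FPKM + 1) with limma over all 11378 genes and all 12 libraries, and p-values were adjusted by Benjamini-Hochberg over those genes, with a threshold of 0.05. A log2 difference is hypoxia minus normoxia, or DKO minus WT. In the hypoxia response, Esm1 and Ptprb rose in both genotypes and no member fell. That is 2 of 7 tested members in DKO, where 39.3% of all tested genes passed (19.6% higher), and 2 of 7 in WT, where 20.8% passed (10.5% higher). Between genotypes, Esm1 was higher in DKO in hypoxia, 1 of 7 members, where 16.1% of all tested genes passed (7.68% higher and 8.42% lower). Tek was higher in DKO in normoxia, 1 of 7, where 8.16% passed (3.84% higher and 4.32% lower). Libraries of the compared groups did not overlap for 2 of the 7 members in the DKO response, against 50.3% of all tested genes, and for 3 in the WT response, against 38.3%. Between genotypes that held for 2 members in hypoxia, against 35.8% of all tested genes, and for 3 in normoxia, against 25.7%. All of these shares for 7 genes rest on so few genes that 1 gene moves them widely. The 4 comparisons share libraries in pairs, so they are not independent of each other; the responses of the 2 genotypes to hypoxia share none.

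**Figure D2:**
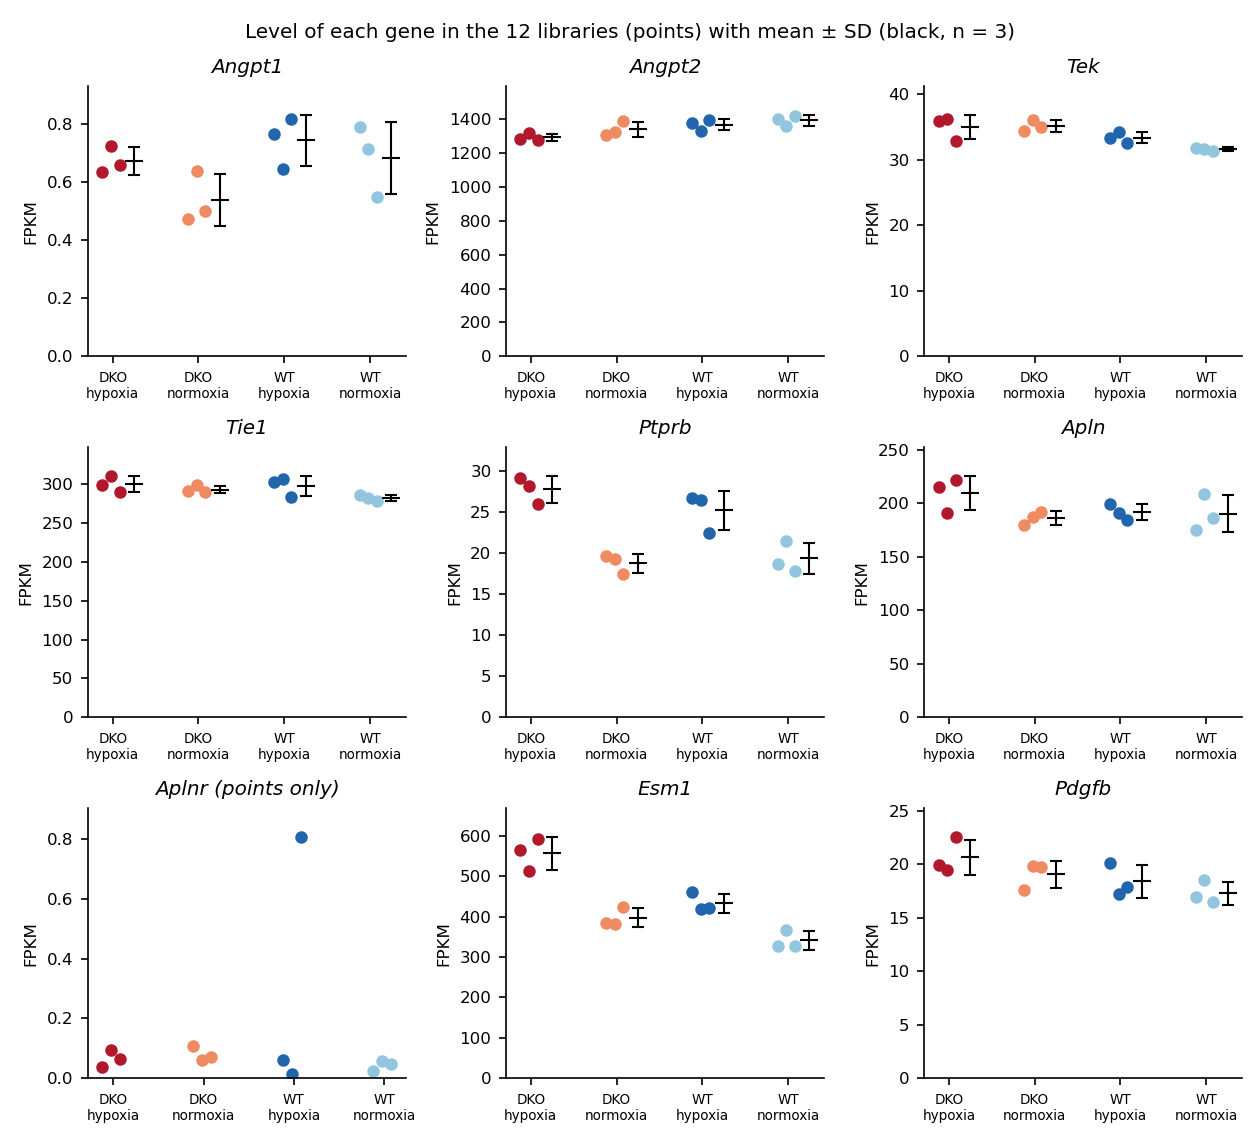
FPKM of each gene in each library (points, 3 per group) with mean ± SD beside them in black, except Aplnr, which has points only because its levels rest on a few fragments; every axis starts at 0. For Ptprb all 6 hypoxia libraries lie above all 6 normoxia libraries, and for Esm1 the 3 DKO hypoxia libraries lie above the other 9.

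Angpt1 is the activating TIE2 ligand (ENSMUSG00000022309, GENCODE M21 on GRCm38, chromosome 15, 42424723 to 42676977, minus strand). It was at 0.636, 0.727 and 0.660 FPKM in DKO hypoxia, 0.475, 0.641 and 0.4997 FPKM in DKO normoxia, 0.768, 0.647 and 0.819 FPKM in WT hypoxia and 0.790, 0.716 and 0.548 FPKM in WT normoxia. These levels rest on an estimated 46 to 85 fragments in a library, and the groups overlapped in all 4 comparisons. Over both genotypes, hypoxia minus normoxia averaged 0.09 on the log2 scale (two-sided exact permutation p = 0.095, labels permuted within a genotype), and over both oxygen levels DKO minus WT averaged -0.09 (two-sided exact permutation p = 0.070, permuted within an oxygen level). The smallest p that these 400 arrangements allow is 0.005. Of the mural cell and fibroblast markers, 5 of 16 passed the level filter. Pdgfrb, Rgs5 and Cspg4 of that list averaged 0.155, 0.0475 and 0.0160 FPKM, while Kcnj8 and Abcc9 averaged 4.78 and 1.39 FPKM. The summed level of that list was 36.6 to 45.9 FPKM in DKO and 33.0 to 54.0 FPKM in WT, with Tagln the highest (27.5 FPKM). Its members moved in both directions between genotypes: in hypoxia 3 of the 5 tested were higher in DKO, Dcn (log2 0.77) and Kcnj8 (0.50) among them, and Tagln was lower (-0.56). In normoxia 4 of the 5 were higher in DKO, among them Dcn (0.68), Kcnj8 (0.58) and Abcc9 (0.43). At each oxygen level 80% of the 5 passed, against 16.1% of all tested genes in hypoxia and 8.16% in normoxia. The part of these markers in the Angpt1 level was not tested.

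Angpt2, the endothelial ligand of TIE2, lies on chromosome 8 (ENSMUSG00000031465, 18690263 to 18741562, minus strand). Its level was 1283, 1316 and 1274 FPKM in DKO hypoxia, 1305, 1323 and 1386 FPKM in DKO normoxia, 1379, 1328 and 1392 FPKM in WT hypoxia and 1398, 1356 and 1419 FPKM in WT normoxia. All 12 libraries lay close together, and of the 4 comparisons only DKO against WT in hypoxia had no overlap, with DKO below. The DKO minus WT difference in hypoxia did not pass (log2 -0.08, 95% interval -0.16 to -0.00371, limma adjusted p = 0.151), nor did the one in normoxia (-0.06, -0.13 to 0.02, adjusted p = 0.404). The change with hypoxia was -0.05 in DKO (interval -0.13 to 0.03, limma adjusted p = 0.280) and -0.03 in WT (-0.10 to 0.05, adjusted p = 0.645). With quantile normalization 2 of these passed, the DKO response to hypoxia (-0.11, limma adjusted p = 0.0138) and DKO minus WT in hypoxia (-0.10, adjusted p = 0.0415). Within a library, Angpt2 stood 1810 to 2773 times above Angpt1 in DKO and 1700 to 2589 times above it in WT.

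Tek encodes TIE2 (ENSMUSG00000006386, chromosome 4, 94739289 to 94874976, plus strand). It had 36.0, 36.2 and 33.0 FPKM in DKO hypoxia, 34.4, 36.1 and 35.0 FPKM in DKO normoxia, 33.4, 34.3 and 32.6 FPKM in WT hypoxia and 31.9, 31.7 and 31.3 FPKM in WT normoxia. The WT normoxia libraries were the 3 lowest of the 12, and the other groups overlapped except DKO normoxia, which lay above WT hypoxia. In normoxia Tek was higher in DKO than in WT by 11.2% (log2 0.15 ± 0.0411 SE, limma adjusted p = 0.0461). This call lies at the threshold and ended in 15 of 21 alternatives, 11 of them the omission of a library, with limma adjusted p from 0.0250 to 0.279. Of the 12 libraries, the call was kept when DKO hypoxia replicate 3 was the one left out. In hypoxia the DKO minus WT difference was 0.07 (95% interval -0.02 to 0.16, limma adjusted p = 0.310). The response to hypoxia was -0.01 in DKO (interval -0.10 to 0.08, limma adjusted p = 0.923) and 0.08 in WT (-0.01 to 0.17, adjusted p = 0.216).

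The file lists 3 protein-coding transcripts of Tek. The 23-exon transcript ENSMUST00000102798 carried 71.5% of the mean level, ENSMUST00000071168, also of 23 exons, 22.0%, and ENSMUST00000073939, of 22 exons, 6.47%. The main transcript averaged 24.9 FPKM in DKO hypoxia, 25.5 FPKM in DKO normoxia, 23.7 FPKM in WT hypoxia and 22.7 FPKM in WT normoxia. On its own it did not pass between genotypes in normoxia (log2 0.16, limma adjusted p = 0.279), and the split between transcripts is the authors' estimate.

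Tie1, the co-receptor of TIE2, lies on the minus strand of the same chromosome (ENSMUSG00000033191, chromosome 4, 118471191 to 118490061). Its level was 299, 311 and 291 FPKM in DKO hypoxia, 291, 299 and 289.9 FPKM in DKO normoxia, 304, 306 and 283 FPKM in WT hypoxia and 286, 282 and 278 FPKM in WT normoxia. The 12 libraries lay close together, and DKO normoxia lay above WT normoxia without overlap. That difference did not pass (log2 0.05, 95% interval -0.03 to 0.14, limma adjusted p = 0.433), and the one in hypoxia was 0.01 (-0.07 to 0.09, adjusted p = 0.866). The response to hypoxia was 0.03 in DKO (interval -0.05 to 0.11, limma adjusted p = 0.517) and 0.08 in WT (-0.00490 to 0.16, adjusted p = 0.171). Without WT hypoxia replicate 3 the WT response was 0.11 and passed (limma adjusted p = 0.0482). A single transcript of 23 exons, ENSMUST00000047421, held 98.0% of the Tie1 level. The ratio of Tie1 to Tek was 8.57 ± 0.252 in DKO hypoxia and 8.34 ± 0.111 in DKO normoxia, and 8.91 ± 0.201 in WT hypoxia and 8.93 ± 0.0443 in WT normoxia (SD, n = 3).

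Ptprb, which encodes the phosphatase VE-PTP, lies on chromosome 10 (ENSMUSG00000020154, 116275523 to 116389535, plus strand) and was measured on a transcript of 32 exons and 11911 bases. It was at 29.2, 28.2 and 26.0 FPKM in DKO hypoxia and at 19.6, 19.3 and 17.4 FPKM in DKO normoxia. In WT it was at 26.7, 26.5 and 22.5 FPKM in hypoxia and at 18.7, 21.6 and 17.9 FPKM in normoxia. All 6 hypoxia libraries were above all 6 normoxia libraries, while the genotypes overlapped at each oxygen level. Ptprb rose with hypoxia by 48.1% in DKO (log2 0.54 ± 0.0816 SE, limma adjusted p = 3.0e-04) and by 30.4% in WT (log2 0.37 ± 0.0816 SE, limma adjusted p = 0.00897). Both calls held in all 21 alternatives, with the highest limma adjusted p at 0.00207 in DKO and 0.0430 in WT. In DKO 5.64% of all tested genes changed by more, and in WT 6.67%. The difference between the 2 responses was 0.18 (95% interval -0.08 to 0.43, limma adjusted p = 0.494). Between genotypes Ptprb did not pass in hypoxia (0.14, -0.04 to 0.31, limma adjusted p = 0.297) or in normoxia (-0.04, -0.22 to 0.14, adjusted p = 0.827).

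Apln encodes the secreted peptide apelin (ENSMUSG00000037010, chromosome X, 48025146 to 48034853, minus strand). Its level was 215, 191 and 222 FPKM in DKO hypoxia, 179, 187 and 192 FPKM in DKO normoxia, 199, 191 and 184 FPKM in WT hypoxia and 175, 209 and 186 FPKM in WT normoxia. Every group overlapped with each of the others it was compared with. Hypoxia minus normoxia was 0.17 in DKO (95% interval 0.02 to 0.31, limma adjusted p = 0.0671) and 0.01 in WT (-0.13 to 0.16, adjusted p = 0.904). The DKO response passed without DKO hypoxia replicate 2 (0.23, limma adjusted p = 0.0189), without WT normoxia replicate 2 (0.17, adjusted p = 0.0350) and with equal library medians (0.18, adjusted p = 0.0427). DKO minus WT was 0.12 in hypoxia (interval -0.02 to 0.27, limma adjusted p = 0.239) and -0.03 in normoxia (-0.17 to 0.12, adjusted p = 0.863).

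Aplnr, the apelin receptor gene, lies on chromosome 2 (ENSMUSG00000044338, 85136225 to 85139923, plus strand) and was close to the floor. It had 0.0376, 0.0955 and 0.0661 FPKM in DKO hypoxia, 0.108, 0.0601 and 0.0712 FPKM in DKO normoxia, 0.0620, 0.0128 and 0.806 FPKM in WT hypoxia and 0.0235, 0.0595 and 0.0472 FPKM in WT normoxia. WT hypoxia replicate 3 stood far above the other 11 libraries. Its value came almost whole from a transcript of 313 bases, ENSMUST00000184728, at 0.761 FPKM, a level that corresponds to an estimated 0.752 fragments; that transcript was listed at 0 in the other 11 libraries. The transcript of 3699 bases, ENSMUST00000057019, held at most 9 estimated fragments in a library. No difference was detectable at this depth (two-sided exact permutation p = 0.765 for oxygen and 0.970 for genotype). Without WT hypoxia replicate 3 the sign of both differences turned, to -0.01 for hypoxia minus normoxia and 0.04 for DKO minus WT on the log2 scale (exact permutation p = 0.52 and 0.075). The ligand Apln stood at 191 to 222 FPKM in DKO hypoxia while its receptor was under 0.1 FPKM there.

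Of the markers of the lung capillary cells that carry these 2 genes, 4 of 9 aerocyte markers and 6 of 9 general capillary markers passed the level filter. Among aerocyte markers, Car4 averaged 0.0072 FPKM and Tbx2 0.0889 FPKM, while Ednrb averaged 16.5 FPKM. Plvap (656.6 FPKM) and Cd93 (219.6 FPKM) of the general capillary list were high, and Gpihbp1 was at 15.4 ± 3.61 FPKM in DKO normoxia and 5.82 ± 0.296 FPKM in WT normoxia (SD, n = 3; limma adjusted p = 1.26e-04). Of the 6 tested general capillary markers, 3 were higher and 2 lower in DKO in hypoxia, with Hilpda (log2 -0.68) lower. In normoxia 4 were higher and 1, Cxcl12 (-0.43), lower. That is 83.3% of the 6 at each oxygen level, against 16.1% of all tested genes in hypoxia and 8.16% in normoxia. With hypoxia 2 of the 6 rose and 1 fell in DKO (50%, against 39.3% of all tested genes). In WT 3 rose and 2 fell (83.3%, against 20.8%). Hilpda rose, by log2 0.53 in DKO and 1.22 in WT, and Kit fell, by -1.17 in DKO and -1.01 in WT. Hilpda averaged 21.0 FPKM in DKO and 20.7 FPKM in WT in normoxia. Ednrb was lower in DKO in hypoxia, at 12.7 ± 2.02 FPKM, against 29.2 ± 4.60 FPKM in WT (SD, n = 3; log2 -1.13, limma adjusted p = 8.09e-05), while Nrp1 of the same aerocyte list was higher there (0.26, limma adjusted p = 0.0213). Their part in the levels of Apln and Aplnr was not tested.

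Esm1, which encodes endocan, lies on chromosome 13 (ENSMUSG00000042379, 113209659 to 113218098, plus strand), directly after the promoter window printed above. It reached 565, 512 and 592 FPKM in DKO hypoxia, against 384, 382 and 425 FPKM in DKO normoxia. In WT it was at 459.8, 417 and 422 FPKM in hypoxia, against 328, 368 and 328 FPKM in normoxia. The 3 DKO hypoxia libraries were above all others, the 3 WT normoxia libraries were below all others, and DKO normoxia and WT hypoxia overlapped between them. Esm1 rose with hypoxia by 40.0% in DKO (log2 0.48 ± 0.0660 SE, limma adjusted p = 1.58e-04) and by 26.9% in WT (log2 0.34 ± 0.0660 SE, limma adjusted p = 0.00411). The difference between these responses was 0.14 (95% interval -0.06 to 0.34, limma adjusted p = 0.504).

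In hypoxia Esm1 was higher in DKO than in WT by 28.4% (log2 0.36 ± 0.0660 SE, limma adjusted p = 0.00355). The 3 Esm1 calls held in all 21 alternatives each, with the highest limma adjusted p at 0.00148, 0.0226 and 0.0187 for the DKO response, the WT response and the genotypes in hypoxia. In normoxia the libraries of the genotypes did not overlap either, and DKO minus WT was 0.22 (95% interval 0.07 to 0.36), yet it did not pass (limma adjusted p = 0.0659). That difference passed without WT normoxia replicate 2 (0.27, limma adjusted p = 0.0434), without DKO hypoxia replicate 2 (0.22, adjusted p = 0.0488) and with equal library medians (0.23, adjusted p = 0.0448).

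Pdgfb, the tip cell ligand for pericytes, lies on chromosome 15 (ENSMUSG00000000489, 79995874 to 80014977, minus strand). It had 19.9, 19.5 and 22.6 FPKM in DKO hypoxia, 17.6, 19.9 and 19.7 FPKM in DKO normoxia, 20.1, 17.2 and 17.8 FPKM in WT hypoxia and 16.9, 18.5 and 16.5 FPKM in WT normoxia. The groups overlapped in all 4 comparisons. The response to hypoxia was 0.11 in DKO (95% interval -0.05 to 0.27, limma adjusted p = 0.279) and 0.08 in WT (-0.08 to 0.24, adjusted p = 0.465). DKO minus WT was 0.16 in hypoxia (interval -0.00479 to 0.32, limma adjusted p = 0.183) and 0.13 in normoxia (-0.03 to 0.29, adjusted p = 0.338). Within a library, Esm1 stood 26.98 ± 1.23 times above Pdgfb in DKO hypoxia and 20.9 ± 1.42 times in DKO normoxia, and 23.6 ± 0.676 times in WT hypoxia and 19.7 ± 0.312 times in WT normoxia (SD, n = 3).

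**Figure D3:**
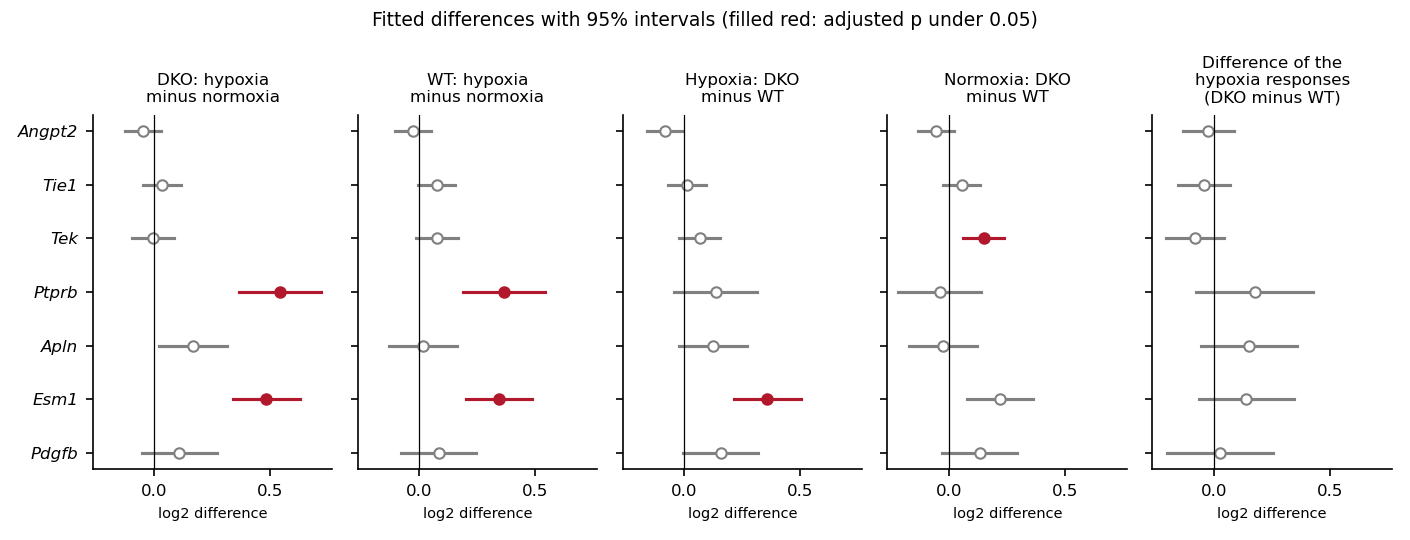
Fitted log2 differences of the 7 tested genes (points) with 95% intervals (lines) in the 4 comparisons and in the difference between the hypoxia responses; filled red points passed the threshold. Ptprb (0.54 in DKO, 0.37 in WT) and Esm1 (0.48 and 0.34) stand to the right in both hypoxia comparisons, and no gene passed in the last panel.

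In the difference between the hypoxia responses of DKO and WT, 0 of the 7 tested members passed in limma, with 0 at an unadjusted p under 0.05, and 0.193% of all tested genes passed. The fitted differences ran from -0.08 (Tek) to 0.18 (Ptprb), and each interval spanned 0. The upper bounds were highest for Ptprb (0.43) and Apln (0.36), so the intervals leave room for unequal responses.

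The genes with the most similar pattern over the 12 libraries were named for the 3 members that passed anywhere, by the root mean square difference of centred log2(FPKM + 1) values. Nearest to Ptprb were Fnbp4 (0.0577), Pcf11 (0.0588) and Gfod1 (0.0603), where Ptprb itself spread by 0.2502 around its mean. Cd3eap (0.0642), Ehd3 (0.0841) and Gch1 (0.0841) were nearest to Esm1, whose spread was 0.265. For Tek, Ctsb (0.0266) and the endothelial gene Mmrn2 (0.0361) were among the nearest, against a spread of 0.0705. No other member of the 9 was among them, but Angpt1 and Aplnr, under the level filter, were not searched. With only the 3 nearest genes kept for each, this absence says little about shared patterns.

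The partners of these genes are given by list, with log2 differences in parentheses. The lists were chosen with earlier results of these data known, so their shares beside all tested genes are a description, not a test. Levels differ too: other tip cell genes had a median of 61.8 FPKM, while tested genes start at an average of 1 FPKM. Some genes are in more than 1 list, markers included, among them Nrp1, Cd34, Kdr, Flt4, Robo4 and Eng. Counts of the lists are therefore not independent. In DKO cells hypoxia raised 8 and lowered 4 of 22 tested TIE2 partners (54.5%, against 39.3% of all tested genes; median log2 0.13, against 0.00883), among the higher ones the phosphatase gene Ptpn11, at 40.7 ± 0.934 FPKM in hypoxia and 33.9 ± 0.574 FPKM in normoxia, Akt1 (0.15) and the scaffold Iqgap1 (0.22). Of 19 apelin receptor partners 11 rose and 2 fell (68.4%, median 0.25), with the transcription factors Mef2a (0.36) and Mef2c (0.45) and the G protein gene Gna13 (0.38) higher. In the PDGF list 2 of 9 rose and 2 fell (44.4%, median 0.03): Plat, tissue plasminogen activator, was at 123.8 ± 10.4 FPKM in hypoxia and 52.8 ± 2.09 FPKM in normoxia, and Pdgfa (-0.39) and Plau (-0.15) fell. Among 29 other tip cell genes 13 rose and 5 fell (62.1%, median 0.18). Ankrd37 (4.34) and Pfkfb3 (3.59), which are known targets of hypoxia-inducible factor, and the urokinase receptor gene Plaur (0.63) led that list. Stalk and quiescent genes divided into 8 higher and 4 lower of 18 (66.7%, median 0.15), with the VEGF decoy receptor Flt1 (0.46) higher and Nrarp (-0.60) and Thbd (-0.34) lower.

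In WT cells 2 of 22 TIE2 partners rose and none fell (9.09%, against 20.8% of all tested genes; median 0.05, against 0.00226), Klf2, a flow-responsive factor, at 5.67 ± 1.32 FPKM in hypoxia and 3.15 ± 0.0574 FPKM in normoxia, and Foxo3 (0.35). That 12 passed in DKO and 2 in WT does not show that the responses differ: in the test of the difference 0 of the 22 passed in limma, with 5 at an unadjusted p under 0.05. Apelin receptor partners had 9 of 19 higher and 1 lower in WT (52.6%, median 0.16), including Gnai1 (0.44), the connexin gene Gja4 (0.65) and Mef2a (0.23). Gja4 averaged 1.01 FPKM over all libraries, barely above the level filter. It was at 1.58 FPKM in WT hypoxia, 0.652 FPKM in WT normoxia and 0.871 FPKM in DKO hypoxia. The group where Gja4 was high thus carried it over the filter, and its call is not independent of that filter. Of the 9 tested genes of the PDGF list (11.1%) only Plat passed, at 119.8 ± 13.4 FPKM in hypoxia and 62.7 ± 6.86 FPKM in normoxia. Tip cell genes other than the members had 13 of 29 higher and 4 lower (58.6%, median 0.12), led by Ankrd37 (4.14), Pfkfb3 (3.19) and Plaur (0.39). Stalk and quiescent genes had 6 of 18 higher (33.3%, median 0.09), led by the Notch effectors Hey1 (1.21) and Hes1 (0.49) and by Klf4 (0.59). In the test of the difference between the responses 0 of these 18 passed in limma, with 7 at an unadjusted p under 0.05. The SDs are over 3 libraries and the limma adjusted p was under 0.05 for each gene said to rise or fall.

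Between genotypes in hypoxia, 2 of 22 TIE2 partners were higher and 2 lower in DKO, with Klf2 at 2.59 ± 0.247 FPKM in DKO and 5.67 ± 1.32 FPKM in WT, Nck1 lower (-0.17) and Ptpn11 higher (0.14). Mef2a (0.22) and Grk5 (0.12) were higher and Gja4 (-0.46) was lower among 19 apelin receptor partners, 3 of which passed. Gja4 was at 0.871 FPKM in DKO and 1.58 FPKM in WT, and the limit given above for its call holds here too. In the PDGF list Plau was lower (-0.19) and Nrp1 higher (0.26). Other tip cell genes had 7 of 29 higher and 1 lower: the chemokine receptor gene Cxcr4 was at 283.9 ± 6.77 FPKM in DKO and 191.8 ± 12.6 FPKM in WT, Cd34 was higher (0.31) and Ramp3 lower (-0.71). Stalk and quiescent genes had 3 of 18 higher, Notch4 (0.34) among them, and 5 lower, with Hey1 at 1.07 ± 0.243 FPKM in DKO and 4.73 ± 1.40 FPKM in WT and Thbd lower (-0.32). From 15.8% (apelin receptor partners) to 44.4% (stalk and quiescent genes) of the 5 lists passed, against 16.1% of all tested genes. The medians of these 5 lists lay between -0.10 and 0.10, and that of all tested genes was -0.00493.

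In normoxia, none of the 22 TIE2 partners and none of the 18 stalk and quiescent genes passed between genotypes in limma, with 5 at an unadjusted p under 0.05 in each list. The apelin receptor kinase gene Grk5 was higher in DKO, at 34.9 ± 0.849 FPKM, against 30.7 ± 0.0756 FPKM in WT, and Pdgfa was higher, at 6.76 ± 0.501 FPKM, against 5.30 ± 0.230 FPKM in WT. Of the 29 other tip cell genes 5 were higher in DKO, among them Cd34 (0.25) and Trp53i11 (0.54), and 3 were lower, with Plaur at 148.0 ± 5.10 FPKM in DKO and 180.3 ± 3.84 FPKM in WT (SD, n = 3). That is 27.6% of this list, against 8.16% of all tested genes. Beside these genotype differences stand the marker lists. Of 9 lymphatic markers 3 were lower in DKO in hypoxia, and in normoxia 2 were lower and 1, Pdpn (log2 0.24), was higher. That is 33.3% of the 9 at each oxygen level, against 16.1% of all tested genes in hypoxia and 8.16% in normoxia. Nts (-1.29 in hypoxia and -0.93 in normoxia) and Lyve1 (-0.56 in hypoxia and -0.40 in normoxia) were lower at both oxygen levels, and Prox1 was lower in hypoxia (-0.34). Most tested mural cell and fibroblast markers were higher in DKO, as given beside Angpt1, and Lyz2 of the macrophage list was higher (1.25 in hypoxia and 1.51 in normoxia), each past the threshold in limma. Their part in the genotype differences of Esm1, Tek and the lists was not tested.

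**Figure D4:**
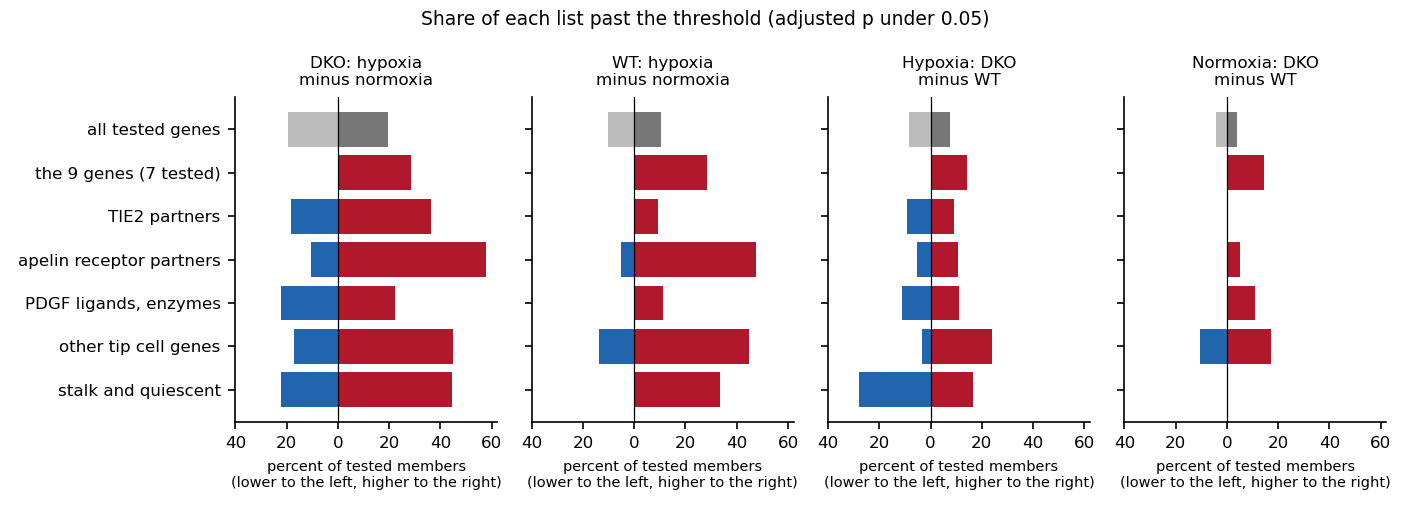
Percent of the tested members of each list past the threshold, lower to the left and higher to the right of 0, in the 4 comparisons, with all tested genes in grey for comparison. In the hypoxia response of DKO cells 44.4% (PDGF list) to 68.4% (apelin receptor partners) of the 5 partner, tip and stalk lists passed in either direction, with 62.1% of other tip cell genes and 66.7% of stalk and quiescent genes, against 39.3% of all tested genes. The lists were chosen with earlier results of these data known, so these shares are a description, not a test.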

How the data were processed

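Per the labels' protocols, the RNeasy Plus kit and the NEBNext Ultra library kit were used; TopHat2 is named in the submitters' processing notes. For 12 libraries, the authors deposited 1 FPKM value for each of 52655 transcripts; the quantification tool, build and annotation were not given in the sources used here. FPKM is relative to each library's total, so a change in a few abundant genes moves all others, and the division of a gene's reads among transcripts is an estimate.

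Transcripts were summed per gene. Genes averaging 1 FPKM or more were fitted on log2(FPKM + 1), which understates changes of low genes, with limma 3.58.1 in R 4.3.3 (1 coefficient per group, variance trend, Benjamini-Hochberg over 11378 genes). Angpt1 and Aplnr, under that level, were compared by exact permutation tests. Depth was estimated from the steps between low FPKM values in 8679 genes with a single transcript, with lengths shortened by 275 bases; 90.3 to 92.3% of low values then lay within 0.1 of a whole fragment. GENCODE M21 (GRCm38) gave positions and held 95.2% of the transcript identifiers. The scripts were tested on simulated data.

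The members and lists were chosen with earlier results of these data known. All members were named, and from each list up to 3 genes that passed, by smallest p; 1 gene with a pattern near that of a member is not reported here; other genes named with levels (markers, Pdgfrb, Car4 and the like) were chosen after their values were seen. Alternatives were a pseudocount of 0.1, no level filter, a filter at 5 FPKM, each library left out, equal library medians, quantile normalization, a replicate block, fits of only the libraries compared, the most abundant transcript alone and no variance trend. The longer transcript alone, for Angpt1 and Aplnr, was chosen after seeing the data.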

Additional observations from a re-analysis of the deposited data

How the results depend on the processing

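Of 728 recomputed fold changes of the 7 tested genes, 685 kept their direction and their side of the threshold, 15 lost the call (all Tek in normoxia), 9 gained it and 19 turned sign, all 19 of them values that did not pass. Many alternatives cannot move a fold change, only its adjusted p. These are the level filters, the replicate block, no variance trend, fits of only the libraries compared and omission of a library outside the comparison. For a gene with 1 transcript, the most abundant transcript is the gene itself. The kept directions were thus in large part fixed in advance. Members past the threshold between genotypes in normoxia numbered 0 with no filter on low values, with the libraries of the comparison alone, with no variance trend and with the most abundant transcript, 2 with equal library medians, and 0 to 1 with a library left out. In hypoxia that number was 2 with quantile normalization. Genes past the threshold with a library left out numbered 1384 to 2390 for hypoxia in WT (1384 without WT hypoxia replicate 1 and 1494 without replicate 2), 587 to 930 for genotypes in normoxia (lowest without WT normoxia replicate 2), 1174 to 1874 for genotypes in hypoxia (1174 without WT hypoxia replicate 2 and 1183 without DKO hypoxia replicate 1) and 1 to 39 for the difference of responses, where omitting WT hypoxia replicate 1 gave 39 and WT hypoxia replicate 3 or DKO hypoxia replicate 2 stayed within 1.5 times of 22, and each of the other 9 gave 1 to 4. With the libraries of the comparison alone 616 genes passed between genotypes in normoxia, and in the difference of responses 12 passed with quantile normalization and 6 with no variance trend, against 22. Quantile normalization turned Tie1 to -0.0797 in DKO and -0.00910 in WT with hypoxia and to -0.0157 between genotypes in hypoxia, and Apln to -0.0308 in WT; equal medians turned Tek to 0.00570 in DKO. With a library left out, values that did not pass ran from -0.0415 to 0.0842 (Apln, hypoxia in WT), -0.0297 to 0.0365 (Tek, hypoxia in DKO), -0.0938 to 0.0351 (Ptprb, normoxia), -0.0836 to 0.0421 (Apln, normoxia), -0.0233 to 0.0352 (Tie1, genotypes in hypoxia), -0.0387 to 0.0865 (Pdgfb, difference of responses) and -0.0456 to 4.7e-04 (Angpt2, difference of responses). Angpt1 ran from 0.0578 to 0.111 for oxygen (exact permutation p = 0.045 without WT normoxia replicate 1) and from -0.124 to -0.0717 for genotype (exact p = 0.040 without WT normoxia replicate 3 and 0.030 without WT hypoxia replicate 2). Aplnr ran from -0.0133 to 0.195 for oxygen and from -0.164 to 0.0446 for genotype. Its longer transcript alone gave -0.0114 for oxygen and 0.0426 for genotype (exact permutation p = 0.52 and 0.055). The cause of these shifts was not tested.

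The replicate numbers of the titles were not taken as pairs: deviations from group means correlated with r from -0.0841 to 0.167 between same-numbered libraries of different groups and from -0.135 to 0.131 between others, and 5 of 12 libraries correlated best with their own number. With a replicate block, 1 gene passed in the difference of responses, and no count of members changed. Depth limits Aplnr, at no more than 9 estimated fragments a library, and Angpt1, at 46 to 85.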
